A study of Mus musculus with 10 samples.

Results

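Succinate dehydrogenase (SDH) is the mitochondrial enzyme that oxidises succinate to fumarate in the tricarboxylic acid cycle and hands the electrons to coenzyme Q, which makes it complex II of the respiratory chain. It is the target of dimethyl malonate (DMM), an ester that cells hydrolyse to malonate, a competitive inhibitor at the succinate site. Succinate that leaves the cell is sensed by SUCNR1, a G protein-coupled receptor that has been studied in the kidney mainly for its part in renin release. The genes described here are the 4 SDH subunits (Sdha, Sdhb, Sdhc and Sdhd), 3 factors that assemble the enzyme (Sdhaf1, Sdhaf2 and Sdhaf4) and the receptor gene Sucnr1. They were chosen by gene symbol, with no measured value in the rule, and make up 8 of the 54532 genes in the deposited table.

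Obstructed kidneys of wild-type male C57BL/6 mice were profiled by bulk RNA-seq, one library per mouse. Unilateral ureteral obstruction (UUO) was made at 8 weeks of age by ligating the left ureter, and the kidneys were taken 14 days later. After surgery 5 mice received DMM at 40 mg per kg into the peritoneum every other day and 5 received PBS. No kidney without obstruction was compared here, so that every value below is a level within obstructed kidneys. The files measure transcripts; enzyme activity and protein were not measured in them. Total counts per library lay between 15722527 (DMM 2) and 19475833 (DMM 4). All 8 genes passed the filter on low counts, with between 27 and 9224 counts per library. Levels are given as CPM, the count of a gene relative to the library total after scaling by the trimmed mean of M values (TMM) over all 10 libraries, so that libraries of different depth can be compared.

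A few libraries stood apart and bear on every result. In the deposited group means PBS 3 and DMM 1 had a weight of 0, so the 8 genes and the medians of the gene lists are given over all 10 libraries and over the 8 that remain without this pair. The methods name 5 kidneys a group and the sources used give no reason for these weights, so that the p-values over the 8 or fewer libraries take this choice as given. By its proximal tubule markers PBS 3 lay among DMM 2, 3 and 5, and DMM 1 lay among the other PBS kidneys. DMM 4 had low counts for short transcripts and high counts for long ones. Among 14508 protein-coding genes in 5 groups of nearly equal size by transcript length, its median deviation from the other 9 libraries was -0.87 on the log2 scale in the shortest group and 0.57 in the longest. In each of the other 9 libraries these medians lay between -0.10 and 0.16. The deviation of DMM 4 correlated with the log of transcript length at r = 0.495 and with GC content at r = -0.481, against -0.204 to -0.0607 and 0.0427 to 0.24 in the other 9. Values without DMM 4 are therefore given as well. Leaving it out of the 8 leaves 7 libraries, 4 PBS and 3 DMM.

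Sdha encodes the flavoprotein that binds and oxidises succinate. Its transcript stood at 344, 363, 481, 295 and 333 CPM in PBS 1 to 5 and at 335, 460.3, 499.8, 313 and 562 CPM in DMM 1 to 5. PBS 3 was high, DMM 1 and DMM 4 were at the level of the other PBS kidneys, and the groups overlapped. Over all 10 libraries the log2 fold change of DMM against PBS was 0.27 ± 0.18 (SE), with a 95% interval from -0.13 to 0.67 and an adjusted p of 0.568 in edgeR's quasi-likelihood test. It was 0.47 ± 0.17 over the 8 libraries (adjusted p = 0.133, edgeR quasi-likelihood test), and DMM 4 alone still lay within the PBS range. Without DMM 4 as well, it was 0.60 ± 0.09 (adjusted p = 0.00190, edgeR quasi-likelihood test). PBS 3 was the highest PBS kidney for Sdha, and DMM 4 and DMM 1 were the lowest DMM kidneys. Leaving them out by itself moves the groups apart, and this p does not allow for that.

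Sdhb encodes the iron-sulfur protein that carries electrons from the flavin toward coenzyme Q. It read 110.3, 111, 160.4, 89.2 and 98.3 CPM in the PBS kidneys and 96.8, 144, 158, 122 and 179.8 CPM in the DMM kidneys. The highest library was again DMM 5 and the lowest PBS 4, but DMM 4 was above 4 of the 5 PBS kidneys here. The log2 fold change was 0.32 ± 0.19 over all 10 libraries, with a 95% interval from -0.10 to 0.74 (adjusted p = 0.537, edgeR quasi-likelihood test). Among the 8 libraries the groups did not overlap and Sdhb was higher by 0.58 ± 0.13 (adjusted p = 0.0331, edgeR quasi-likelihood test), a 1.50-fold difference that rounds to the threshold of 1.5 used for calls and lies just under it. PBS 3 was the highest PBS and DMM 1 the lowest DMM kidney for this gene, so that leaving out the pair by itself moves the groups apart. In 7 of the 8 fits that left out 1 more library the adjusted p was above 0.05 (0.0572 to 0.121). It was called without DMM 4, at 0.65 ± 0.10 (adjusted p = 0.00188, edgeR quasi-likelihood test). DMM 4 was the lowest DMM kidney of the 8 for Sdhb, so that this step too moves the groups apart.

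Sdhc and Sdhd encode the membrane anchors that hold the complex in the inner membrane and form the coenzyme Q site with Sdhb. Sdhc gave 137, 138, 191, 123 and 144 CPM in the PBS kidneys, against 135, 185, 206, 71.5 and 196 CPM in the DMM kidneys. Sdhd gave 109, 109.9, 152, 101 and 105 CPM in the PBS kidneys, against 106, 145, 157, 42.5 and 164 CPM in the DMM kidneys. For both anchors PBS 3 and DMM 2, 3 and 5 were high, the lowest library of all 10 was DMM 4, and the groups overlapped. Their log2 fold changes over all 10 libraries were 0.12 ± 0.24 for Sdhc and 0.10 ± 0.29 for Sdhd, with 95% intervals from -0.41 to 0.65 and from -0.54 to 0.73. With the 8 libraries they were 0.29 ± 0.27 (adjusted p = 0.580, edgeR quasi-likelihood test) and 0.26 ± 0.33 (adjusted p = 0.697, edgeR quasi-likelihood test). Both depend on DMM 4 and on the pair PBS 3 and DMM 1. Without DMM 4 alone, over 9 libraries, they were 0.30 ± 0.15 for Sdhc and 0.31 ± 0.15 for Sdhd (adjusted p = 0.323 and 0.321, edgeR quasi-likelihood test) and the groups overlapped. Without all 3 libraries the groups did not overlap, and Sdhc and Sdhd were higher by 0.53 ± 0.07 (adjusted p = 0.000998, edgeR quasi-likelihood test) and 0.54 ± 0.06 (adjusted p = 0.000612, edgeR quasi-likelihood test), both below the fold threshold. For both genes PBS 3 was the highest PBS kidney, and DMM 4 and DMM 1 were the lowest DMM kidneys. Leaving them out by itself moves the groups apart, and neither these p-values nor the lack of overlap allows for that.

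**Figure D1:**
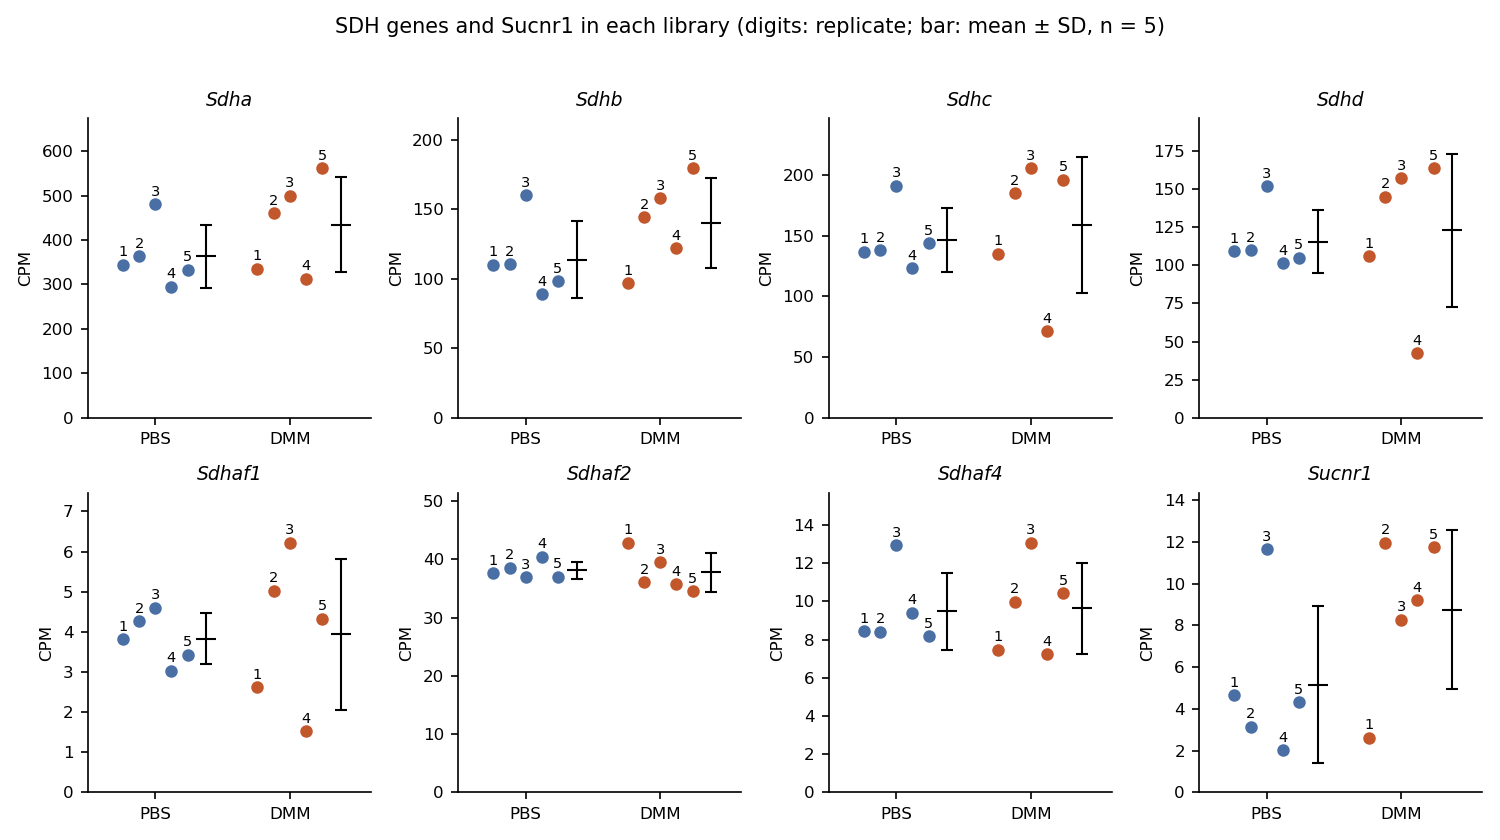
Each panel shows 1 gene, with its level in CPM on the vertical axis from 0 and the 5 PBS and 5 DMM kidneys as points marked by replicate; the bar beside each group is its mean ± SD. PBS 3 and DMM 2, 3 and 5 are the 4 highest libraries for each SDH subunit, and DMM 4 is the lowest for Sdhc at 71.5 CPM and for Sdhd at 42.5 CPM.

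Called genes can be read against all genes tested. A call needed an adjusted p below 0.05 with more than a 1.5-fold difference. Over all 10 libraries 0 of the 8 genes were called by edgeR, as were 0 of 16505 tested genes in either direction (0% called), and the groups of 0 of the 8 did not overlap, against 0.697% with the DMM kidneys higher. At an unadjusted p under 0.05 and the same fold, edgeR gave 315 higher (1.91%) and 678 lower genes (4.11%), none of them among the 8; DESeq2 called 9 higher and 34 lower and limma-voom 0 in either direction. Over the 8 libraries 1 of the 8 genes, Sucnr1, was called higher, against 2.73% of 16550 tested genes. Sucnr1 and Sdhb passed the adjusted p at any fold, against 3.17%, and were the 2 whose groups did not overlap, against 8.68%. Without DMM 4 as well, 3 of the 8 were called higher (Sdha, Sdhb and Sucnr1) against 6.71% of 16828 tested genes, 5 passed at any fold against 14.3%, and 7 did not overlap against 19.2%. For the SDH subunits, Sdhaf1 and Sdhaf4, PBS 3 was the highest PBS kidney, and DMM 1 and DMM 4 were the lowest DMM kidneys. Which libraries were left out thus sets these counts in part. The median log2 fold change of all tested genes was 0.02 over 10 and over 8 libraries and -0.01 over 7.

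Within a library the 4 subunits kept near-constant ratios to each other, DMM 4 apart. The log2 difference of Sdhd from Sdha was -1.65, -1.72, -1.66, -1.54 and -1.66 in PBS 1 to 5 and -1.66, -1.67, -1.67, -2.88 and -1.78 in DMM 1 to 5. The 9 libraries other than DMM 4 thus lay within a narrow band in both groups, and DMM 4 lay far below it. The difference of Sdhc from Sdha was -2.13 in DMM 4 and between -1.52 and -1.21 elsewhere. Sdhb moved the other way, with a difference from Sdha of -1.36 in DMM 4 and between -1.79 and -1.58 elsewhere. The longest annotated transcripts are 2900 bases for Sdha, 1232 for Sdhb, 3171 for Sdhc and 1231 for Sdhd, and the deposited lengths are 4126, 2239, 3250 and 1231 bases. Sdhb and Sdhd, which moved in opposite directions relative to Sdha in that library, are alike in the first length but not in the second, and their GC content is 53.4% and 49.4%. What set the values of DMM 4 was not tested. With log2 CPM tested by limma over the 8 libraries, a correction of each library for transcript length and GC content moved the log2 fold change from 0.58 to 0.71 for Sdhb, from 0.45 to 0.46 for Sdha, from 0.19 to 0.20 for Sdhc and from 0.10 to 0.16 for Sdhd.

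**Figure D2:**
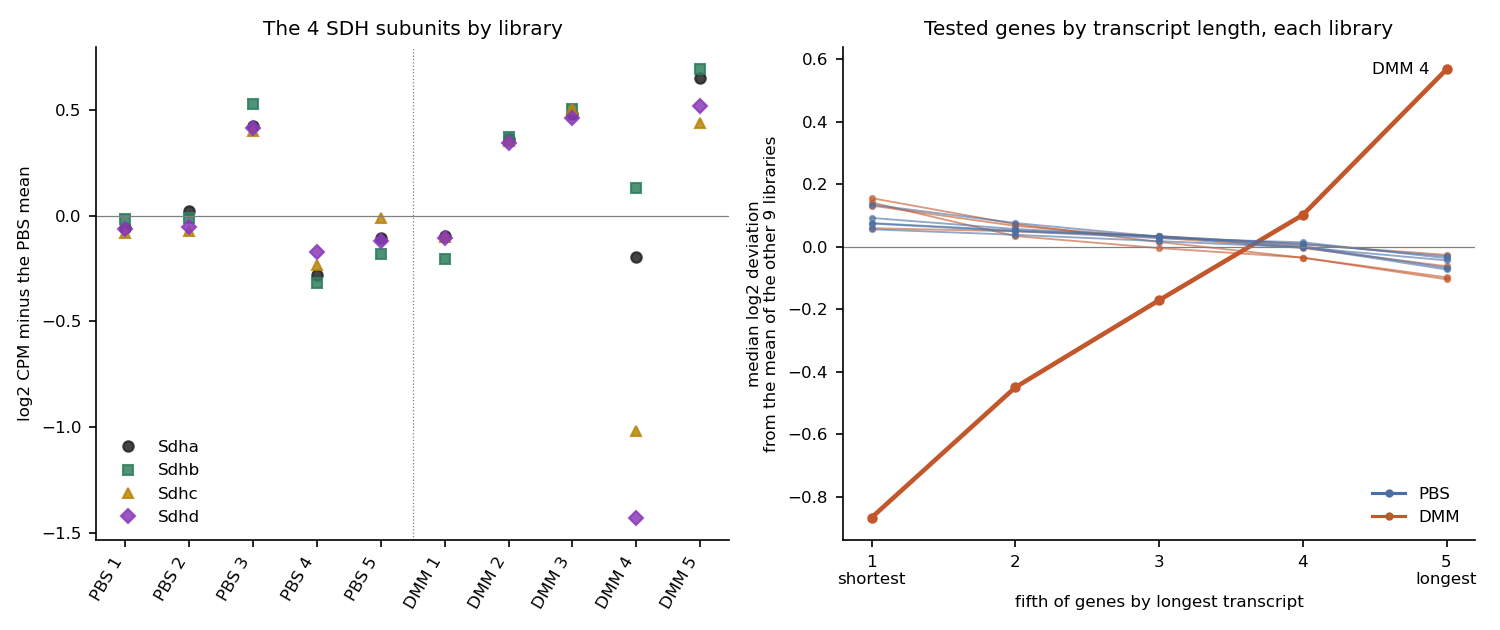
Left: log2 CPM of the 4 SDH subunits minus the mean of the PBS kidneys, in each of the 10 libraries. Right: for each library, the median log2 deviation of tested protein-coding genes from the other 9 libraries, in 5 groups from the shortest to the longest transcripts; DMM 4 runs from -0.87 to 0.57 and the other 9 stay between -0.10 and 0.16.

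Levels of different genes were compared as CPM per kilobase of the deposited gene length. In the PBS kidneys Sdhd stood at 93.9 ± 16.9 (SD, n = 5) and Sdha at 88.1 ± 17.1, followed by Sdhb at 50.8 ± 12.3 and Sdhc at 45.1 ± 8.03 CPM per kilobase. Sdhaf2 at 12.3 ± 0.47 and Sdhaf4 at 10.8 ± 2.29 came next, then Sucnr1 at 3.15 ± 2.30 and Sdhaf1 at 1.54 ± 0.25 CPM per kilobase. The means of each of these 4 neighbouring pairs differ by less than the larger SD between kidneys, although within the single kidneys Sdhd stood above Sdha, and Sucnr1 above Sdhaf1, in all 5. In the DMM kidneys the means were 105 for Sdha, 99.9 for Sdhd, 62.6 for Sdhb, 48.8 for Sdhc, 12.2 for Sdhaf2, 11.0 for Sdhaf4, 5.34 for Sucnr1 and 1.58 for Sdhaf1 CPM per kilobase, again with Sdha and Sdhd on top. The order depends on the length used: per kilobase of the longest transcript the PBS means were 125 for Sdha, 93.9 for Sdhd, 92.4 for Sdhb and 46.2 for Sdhc, and Sdhaf4 at 13.9 stood above Sdhaf2 at 9.73. Sdhaf2 is the 1 member whose deposited length (3096 bases) differs from the length of its joined exons in GENCODE M21 (7195 bases). Transcript levels of an enzyme's subunits do not give the ratio of its proteins.

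The assembly factors act at separate steps: SDHAF2 puts the flavin into the catalytic subunit, SDHAF4 brings that subunit to the iron-sulfur protein, and SDHAF1 helps to insert the iron-sulfur clusters. Sdhaf2 was the steadiest of the 8 genes, at 37.6, 38.6, 36.9, 40.4 and 37.0 CPM in the PBS kidneys and 42.8, 36.1, 39.5, 35.7 and 34.5 CPM in the DMM kidneys. Its coefficient of variation was 3.82% in PBS and 9.06% in DMM, and it did not share the high values of PBS 3 and DMM 2 and 5; DMM 1 was its highest library and DMM 5 its lowest. Its log2 fold change was 0.00 ± 0.09 over all 10 libraries, with a 95% interval from -0.19 to 0.20, and -0.05 ± 0.10 over the 8. Sdhaf2 thus stayed within narrow limits in these libraries while the subunit whose flavin it handles ranged from 295 to 562 CPM.

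Sdhaf4 measured 8.43, 8.42, 12.9, 9.42 and 8.17 CPM in the PBS kidneys and 7.47, 9.99, 13.1, 7.23 and 10.4 CPM in the DMM kidneys. PBS 3 and DMM 3 were high, as for the subunits, and the groups overlapped. Sdhaf1, the least abundant of the 8 per kilobase, measured 3.82, 4.27, 4.60, 3.03 and 3.43 CPM in the PBS kidneys and 2.62, 5.03, 6.22, 1.52 and 4.32 CPM in the DMM kidneys. DMM 4 and DMM 1 were its lowest libraries and DMM 3 its highest, and at 27 to 109 counts per library its counting error is larger than that of the other assembly factors. The log2 fold changes over all 10 libraries were 0.04 ± 0.20 for Sdhaf4 and 0.05 ± 0.32 for Sdhaf1. They were 0.26 ± 0.18 (adjusted p = 0.462, edgeR quasi-likelihood test) and 0.24 ± 0.36 (adjusted p = 0.748, edgeR quasi-likelihood test) over the 8. Without DMM 4 as well they were 0.37 ± 0.13 (adjusted p = 0.0701, edgeR quasi-likelihood test) and 0.51 ± 0.19 (adjusted p = 0.0819, edgeR quasi-likelihood test), and that of Sdhaf2 was -0.07 ± 0.07. Leaving DMM 3 out of the 8 in place of DMM 4 put Sdhaf1 at 0.006. A further factor for the iron-sulfur subunit, Sdhaf3, is outside the rule and was read after its values were seen; its log2 fold change was 0.41 ± 0.15 over all 10 libraries (adjusted p = 0.394, edgeR quasi-likelihood test) and 0.49 ± 0.18 over the 8 (adjusted p = 0.142, edgeR quasi-likelihood test).

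Sucnr1 had the largest ratio of highest to lowest CPM of the 8 genes. The receptor transcript stood at 4.67, 3.14, 11.6, 2.02 and 4.32 CPM in PBS 1 to 5 and at 2.62, 12.0, 8.27, 9.20 and 11.8 CPM in DMM 1 to 5. Apart from PBS 3 the PBS kidneys were low, apart from DMM 1 the DMM kidneys were high, and with this pair in the comparison the groups overlapped. These values rest on 38 to 205 counts per library. Over all 10 libraries the log2 fold change was 0.79 ± 0.49, with a 95% interval from -0.28 to 1.86 (adjusted p = 0.544, edgeR quasi-likelihood test). Over the 8 libraries Sucnr1 was 2.95-fold higher, by 1.56 ± 0.28 on the log2 scale with a 95% interval from 0.94 to 2.18 (adjusted p = 0.0127, edgeR quasi-likelihood test). As for Sdhb, the pair left out holds the highest PBS and the lowest DMM kidney, and neither this p nor the groups' lack of overlap allows for how the pair was chosen. DMM 4, which was lowest for both membrane anchors, was high for Sucnr1, and the log2 fold change without it was 1.59 ± 0.27. The call thus rests on leaving out PBS 3 and DMM 1, as the deposited means do.

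The enzymes on either side of SDH in the cycle, with others that make or use succinate or fumarate, formed a list of 15 genes. Over all 10 libraries 0 of the 15 were called, and the median log2 fold change was 0.34 against 0.02 for all tested genes. Over the 8 libraries 5 of the 15 were called higher and 8 passed the adjusted p at any fold, against 2.73% and 3.17% of all tested genes. All 15 had a log2 fold change above 0, as had 52.4% of all tested genes, and the median was 0.64. Mdh2 at 0.21 ± 0.19 and Adsl at 0.20 ± 0.09 were the smallest and did not pass. In the 7 libraries without DMM 4, 10 were called and all 15 passed at any fold, against 6.71% and 14.3%, and the median was 0.77. These shares apply to the higher calls in the lists below as well. For lower calls they are 3.56% over the 8 libraries and 7.61% over the 7. By summed level PBS 3 was the highest PBS kidney for this list, and DMM 1 and DMM 4 were the lowest DMM kidneys. Leaving them out by itself moves the groups apart, and the counts over the 8 and 7 libraries do not allow for that. The same holds for the lists of carriers, cofactor supply, respiratory complexes and tubule markers below. Fh1, which hydrates the fumarate that SDH makes, read 91.1 ± 16.3 CPM in the PBS and 121 ± 24.4 CPM in the DMM kidneys (SD, n = 5 each), and its log2 fold change was 0.43 ± 0.17 over 10 and 0.65 ± 0.11 over 8 libraries (adjusted p = 0.0112 over 8, edgeR quasi-likelihood test). Sucla2, a subunit of the ligase that makes succinate, was higher by 0.53 ± 0.11 over the 8 libraries (adjusted p = 0.0212, edgeR quasi-likelihood test) and by 0.31 ± 0.16 over all 10. The other ligase subunits, Suclg1 and Suclg2, had log2 fold changes of 0.56 ± 0.24 and 0.65 ± 0.30 over the 8 and did not pass; over all 10 they were at 0.33 ± 0.24 and 0.33 ± 0.31. The components of the preceding oxoglutarate dehydrogenase complex passed at any fold over the 8 libraries, with log2 fold changes of 0.51 ± 0.11 for Ogdh, 0.49 ± 0.11 for Dlst and 0.59 ± 0.11 for Dld, but not over all 10 (0.34, 0.30 and 0.37). Oxct1, which uses succinyl-CoA in ketone body breakdown, and Abat and Aldh5a1, which turn GABA into succinate, were higher by 0.97, 1.25 and 0.86 over the 8 libraries and by 0.51, 0.68 and 0.44 over all 10, where none passed.

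Carriers that move succinate and other dicarboxylates formed a list of 13 genes, 12 of them tested. Of these, 3 were called higher and 0 lower over the 8 libraries, and the median log2 fold change was 0.63, against 0.33 over all 10 libraries with 0 called. Leaving out DMM 4 too, 6 were called, 8 passed at any fold and the median was 0.80. Slc13a3, the dicarboxylate cotransporter of the basolateral membrane, was higher by 2.11 ± 0.43 over the 8 libraries (adjusted p = 0.0225, edgeR quasi-likelihood test) and by 1.19 ± 0.61 over all 10, where it did not pass. Slc13a2, the cotransporter of the brush border, rose by 1.11 ± 0.26 (adjusted p = 0.0372, edgeR quasi-likelihood test), and was at 0.77 ± 0.28 over all 10. The anion exchanger Slc26a1 was at 1.17 ± 0.18 over the 8 (adjusted p = 0.00819, edgeR quasi-likelihood test) and 0.74 ± 0.29 over all 10. The mitochondrial dicarboxylate carrier Slc25a10 did not pass, at 0.80 ± 0.27 over the 8 and 0.39 ± 0.32 over all 10. The 12 ranged from -0.05 for Slc25a1 to 2.5 for Slc22a8, which did not pass, and Slc25a1, Vdac2 (0.09), Vdac3 (0.15), Slc16a1 (0.19) and Slc25a11 (0.21) lay below every SDH subunit over the 8 libraries.

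Other lists hold the genes that supply the cofactors of SDH. Of 28 tested genes for flavin, iron-sulfur clusters and heme, 1 was called higher over the 8 libraries and 2 passed at any fold, with a median log2 fold change of 0.25 (0.12 over all 10). The called gene was Hspa9, a chaperone of iron-sulfur cluster transfer, which rose by 0.62 ± 0.12 (adjusted p = 0.0162, edgeR quasi-likelihood test); the other was Rfk, which makes flavin mononucleotide, at 0.42 ± 0.09 (0.28 ± 0.12 over all 10). Hspa9 was not called over all 10 libraries, with a log2 fold change of 0.42 ± 0.16. This list turned on DMM 4: without it 19 of the 28 passed at any fold, 1 was called (Alas1, an enzyme of heme synthesis, at 0.59), and the median was 0.36. Of 13 genes for the synthesis of coenzyme Q, the electron acceptor of SDH, 1 was called over the 8 libraries, Coq8a at 0.90 ± 0.22 (0.47 ± 0.31 over all 10), with a median of 0.12 (0.05 over all 10); Pdss2 was at 0.28 ± 0.18 over all 10. Coq8a and Coq9 were called without DMM 4, where 4 passed at any fold and the median was 0.27. Of 9 genes for other routes of electrons to coenzyme Q, dehydrogenases and electron carriers, 0 were called over 8 or 10 libraries. The medians were 0.47 and 0.29. Without DMM 4, 5 were called (Etfa, Etfb, Etfdh, Prodh and Prodh2) and 7 passed at any fold, with a median of 0.65. Prodh was at 0.59 ± 0.34 over all 10 libraries.

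The other respiratory complexes give the setting for complex II. The median log2 fold change of the SDH subunits over the 8 libraries was 0.38, against 0.27 for 36 nuclear subunits of complex I, 0.39 for 9 of complex III, 0.27 for 10 of complex IV and 0.21 for 16 of ATP synthase. The same medians over all 10 libraries were 0.20, 0.09, 0.20, 0.11 and 0.10, with 0 genes called in any of the lists. In the 8 libraries 1 gene of complex I was called, Ndufs1 at 0.66 ± 0.12 (0.35 ± 0.21 over all 10), and 0 of the other 3 complexes; Ndufa9 of complex I passed at a smaller fold, at 0.47 ± 0.11 (0.29 ± 0.14 over all 10). The genes of smallest p over all 10 libraries in the other complexes were Uqcrh at 0.28 ± 0.16, Cox7a2 at 0.22 ± 0.21 and Atp5a1 at 0.30 ± 0.19. Without PBS 3, DMM 1 and DMM 4 the medians were 0.57 for SDH, 0.47 for complex I, 0.56 for complex III, 0.59 for complex IV and 0.45 for ATP synthase. In these 7 libraries 5 genes of complex I, 4 of complex III, 6 of complex IV and 4 of ATP synthase were called, and 34 of 36, 9 of 9, 10 of 10 and 15 of 16 passed at any fold, as did 4 of the 4 SDH subunits with 2 called. Of all tested genes 6.71% were called higher and 14.3% passed at any fold in the 7 libraries. In the 8 libraries 2.73% were called higher. By summed level PBS 3 was the highest PBS kidney for each of these complexes, and DMM 1 and DMM 4 were the lowest DMM kidneys. Leaving them out by itself moves the groups apart, and the counts over the 7 libraries do not allow for that. DMM 4 was the lowest library for each of these complexes, as it was for the anchors of SDH. For complex IV the summed level of the 10 genes was 391 CPM there and between 1033 and 1884 CPM in the other 9 libraries. For complex I, complex III and ATP synthase the sums were 1277, 559 and 2452 CPM in DMM 4. They were 1693, 733 and 2859 CPM in PBS 4, the next lowest library. No difference between complexes was tested.

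**Figure D3:**
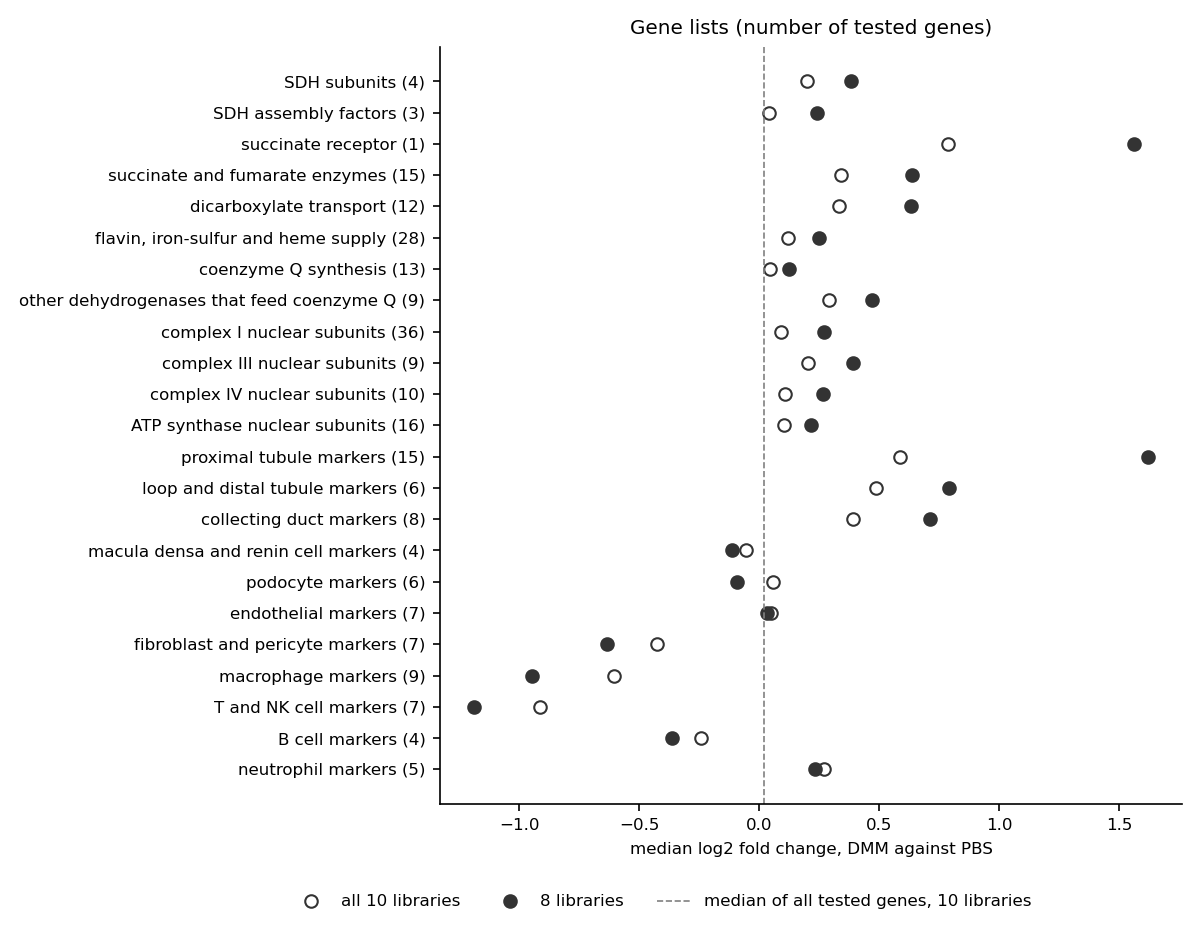
Median log2 fold change of DMM against PBS for each gene list, with open circles for all 10 libraries and filled circles for the 8 without PBS 3 and DMM 1; the number of tested genes stands in brackets and the dashed line is the median of all tested genes, 0.02. The SDH subunits lie at 0.20 and 0.38, near the other respiratory complexes, and the proximal tubule markers at 0.59 and 1.62.

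Markers of the tubule and of fibroblasts parted the same libraries as the SDH subunits did. In bulk tissue fewer cells of a type and less RNA per cell cannot be told apart. The summed level of 15 proximal tubule markers was 4573, 4531, 11819, 1711 and 3370.0 CPM in PBS 1 to 5 and 3397, 9302, 7744, 6186 and 11240.0 CPM in DMM 1 to 5. The 4 libraries highest for each SDH subunit, PBS 3 and DMM 2, 3 and 5, were also the 4 highest here, and PBS 4, the lowest, was the lowest for Sdha, Sdhb and Sucnr1. Kap was the most abundant of the 15, and each of the 15 had counts in every library. All 15 had a log2 fold change above 0 in both sets, as had 52.8% of all tested genes over 10 libraries and 52.4% over 8. Of the 15, 0 were called over all 10 libraries and 5 over the 8 (against 2.73% of all tested genes), and their median was 0.59 and 1.62. With DMM 4 left out too, 13 were called (against 6.71% of all tested genes) and the median was 1.58. Cubn and Lrp2, receptors of the tubule brush border, rose by 1.73 ± 0.30 and 1.97 ± 0.36 over the 8 libraries, and were at 1.18 ± 0.42 and 1.24 ± 0.52 over all 10. The part of the tubule cells in the values of Sucnr1 and the SDH subunits was not tested.

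**Figure D4:**
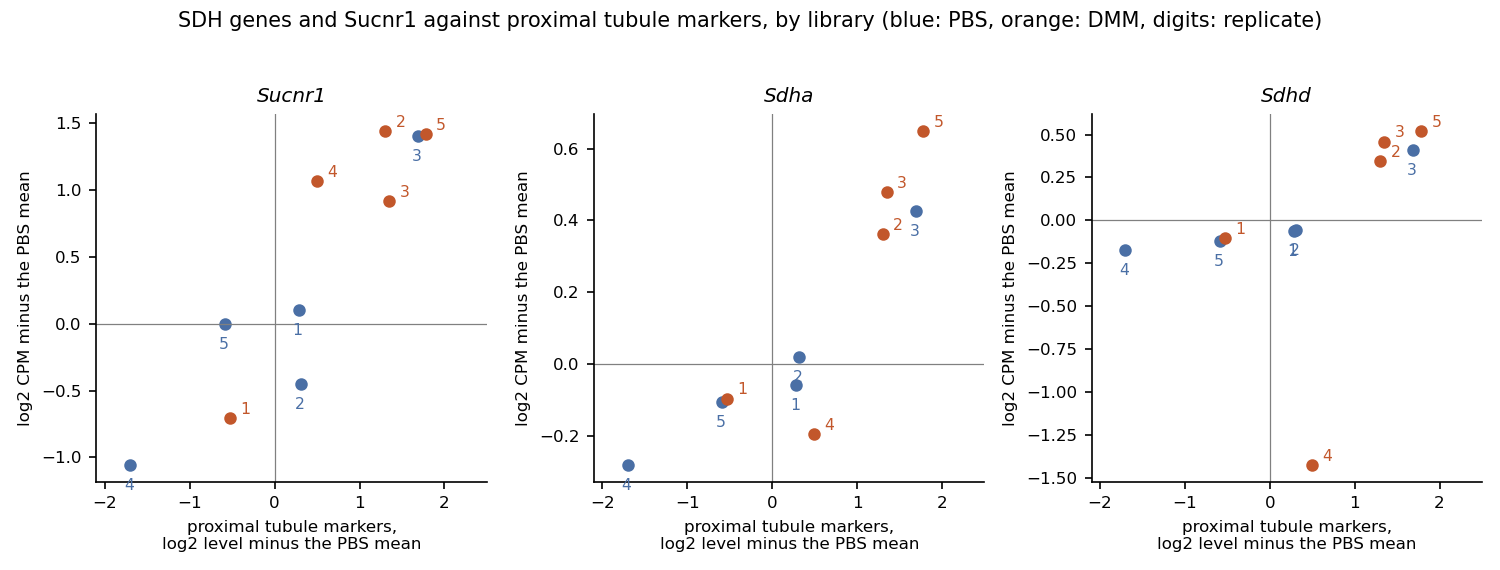
Log2 CPM of Sucnr1, Sdha and Sdhd minus the PBS mean (vertical axes) against the level of 15 proximal tubule markers on the same scale (horizontal axes), 1 point per library, with the PBS kidneys in blue and the DMM kidneys in orange. PBS 3 and DMM 2, 3 and 5 lie to the right in each panel; DMM 4 is level with them for Sucnr1, low for Sdha and at -1.43 for Sdhd.

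Markers of other tubule segments were called higher in part. Of 6 tested markers of the loop and distal tubule 3 were called higher over the 8 libraries, with a median of 0.79 (0.49 over all 10); Slc12a1 was at 1.53 ± 0.31 over the 8 and 0.94 ± 0.43 over all 10. Leaving out DMM 4 too gave 5 called and a median of 1.0. Umod was the most abundant, and Pvalb was at 0 in 6 of the 10 libraries. Of 8 tested collecting duct markers 2 were called, with a median of 0.71 (0.39 over all 10); Slc26a4 was at 1.06 ± 0.18 over the 8 and 0.93 ± 0.17 over all 10, and Avpr2 was at 0 in 2 libraries; 5 were called without DMM 4, with a median of 0.88. The 4 libraries high for the SDH subunits were the 4 lowest for fibroblast and pericyte markers. The summed level of 7 fibroblast and pericyte markers, with Col3a1 the most abundant, was 6555, 9731, 5233, 14212 and 9112 CPM in the PBS kidneys and 11200.1, 5350, 3732, 6846 and 4234 CPM in the DMM kidneys. PBS 4 and DMM 1, low for Sdhb and Sucnr1, were the highest here, and PBS 3 was lowest among the PBS kidneys. Col1a2 was at -1.11 ± 0.22 over the 8 libraries and -0.61 ± 0.33 over all 10, and was the 1 of these 7 called lower over the 8 (against 3.56% of all tested genes), and their median was -0.63 (-0.43 over all 10). Col1a1, Col1a2 and Col3a1 were called lower without DMM 4, against 7.61% of all tested genes, and the median was -0.69. The other markers of the list were not called. Over the 8 libraries Pdgfrb was at -0.07, Pdgfra at -0.15, Dcn at -0.63 and Acta2 at -0.45. Over all 10 they were at 0.07, -0.13, -0.43 and 0.07. In PBS the collagens averaged 2498, 2231 and 3086 CPM and the other markers 278 to 308 CPM each, so that the summed level mainly follows the collagens.

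The summed level of 9 macrophage markers, with Lyz2 the most abundant, was 2328, 2443, 1881, 2144 and 2562 CPM in the PBS kidneys and 2243, 1585, 1289, 937 and 1304 CPM in the DMM kidneys. DMM 4 was the lowest and DMM 1 lay within the PBS range. Cd68 at -0.97 ± 0.16 and C1qb at -1.36 ± 0.34 were the 2 of the 9 called lower over the 8 libraries (-0.72 ± 0.20 and -0.98 ± 0.35 over all 10), and the median was -0.95 (-0.61 over all 10). Among the 7 libraries without DMM 4, 6 were called lower and the median was -0.87. The summed level of 7 T and NK cell markers ran from 12.5 CPM in DMM 3 to 57.4 CPM in PBS 5. Of these, Cd4 was called lower over the 8 libraries (-1.19 ± 0.26, and -0.96 ± 0.25 over all 10). Their median was -1.19 (-0.91 over all 10). Without DMM 4 Cd3d, Cd3g and Cd4 were called lower, with a median of -1.07. The NK cell markers of the list were not called. Over the 8 libraries Ncr1 was at -0.31 ± 0.66 and Klrb1c at 0.04 ± 0.56 (-0.54 and 0.12 over all 10). SUCNR1 is also known from macrophages. The 5 kidneys highest in macrophage markers (PBS 1, 2, 4 and 5 and DMM 1) were the 5 lowest in Sucnr1, but tubule and fibroblast markers differed between the same libraries; which cells held the transcript cannot be read from these libraries. Of 4 macula densa and renin cell markers, cells in which renin release has been studied, 0 were called over 8 or 10 libraries: Nos1 was at 0.63 ± 0.36 and Ren1 at -0.90 ± 0.75 over all 10 libraries, and the summed level ranged from 32.2 CPM in PBS 1 to 471 CPM in PBS 4. DMM 4 set the sign of Ptgs2 of this list: its log2 fold change was 1.31 ± 1.17 over 10 and 1.29 ± 1.34 over 8 libraries but -2.61 ± 0.61 without DMM 4, where it was called lower (adjusted p = 0.0127, edgeR quasi-likelihood test). The median of the 4 was -0.05 over 10, -0.11 over 8 and -1.87 over 7 libraries. Markers of podocytes, endothelium, B cells and neutrophils had 0 called over 10, 8 or 7 libraries, with medians over all 10 of 0.06, 0.05, -0.24 and 0.27 and without DMM 4 as well of -0.18, 0.05, -0.14 and -1.30. The neutrophil markers summed to 100.9 CPM in DMM 4 and 18.6 to 33.2 CPM in the other DMM kidneys, and to 114 CPM in PBS 4 and 21.8 to 35.5 CPM in the other PBS kidneys, so that 1 library in each group weighs on their median. Over all 10 libraries Synpo was at 0.10 ± 0.13, Ehd3 at 0.20 ± 0.11, Cd79b at -0.25 ± 0.22 and Csf3r at -0.38 ± 0.31.

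Likeness across the 10 libraries was measured by Pearson's r on log2 CPM, as a description. The SDH subunits and the tubule markers part PBS 3 and DMM 2, 3 and 5 from the other 6 libraries, and r takes in this split. Without DMM 4 r was 0.99 to 0.995 for the genes named with the SDH subunits and 0.97 to 0.995 for those named with Sucnr1. Among 10798 protein-coding genes with a mean of at least 10 CPM, those most like the mean of the 4 SDH subunits were Nipsnap1 (r = 0.995), Atp5g3 (0.994), Echs1 (0.994), Slc25a3 (0.994) and Sugct (0.994), each with n = 10. Atp5g3 encodes a subunit of ATP synthase, Echs1 an enzyme of fatty acid oxidation, Slc25a3 the mitochondrial phosphate carrier and Sugct a transferase that uses succinyl-CoA. Nipsnap1 ranged from 27.3 to 83.6 CPM, and Sugct from 6.27 to 55.2 CPM. Among 14008 genes with a mean of at least 1 CPM, those most like Sucnr1 were Tcaim (r = 0.986), Cyp2j5 (0.976), Ugt8a (0.975), Nepn (0.973) and Abcg2 (0.971), again with n = 10. Cyp2j5 is a cytochrome P450 of the kidney and Abcg2 a transporter that exports urate and drugs. Their log2 fold changes over the 8 libraries were 0.71 for Tcaim, 0.90 for Cyp2j5, 0.84 for Ugt8a, 1.84 for Nepn and 0.92 for Abcg2, against 1.56 for Sucnr1, and over all 10 libraries 0.35, 0.51, 0.48, 0.82 and 0.57, against 0.79.

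The members lie apart in the genome. By the deposited coordinates (mm10) Sdha is at chr13:74322254-74350280 on the minus strand, Sdhb at chr4:140961203-140979193 on the plus strand, Sdhc at chr1:171127165-171150603 and Sdhd at chr9:50596357-50603812, both on the minus strand. Sdhaf1 is at chr7:30321406-30323895, Sdhaf2 at chr19:10500513-10525209 and Sdhaf4 at chr1:23995939-24005656, all on the minus strand, and Sucnr1 is at chr3:60081869-60087566 on the plus strand. Sdhc and Sdhaf4 share a chromosome but lie far apart on it. The annotation places another gene over Sdha (Gm16125), Sdhaf1 (E130208F15Rik) and Sdhaf4 (Gm26524); these had at most 2, 0 and 1 counts in any library. How reads shared by overlapping genes were counted is not known.

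The 250 bases upstream of the start were read for the 7 members in the RefSeq promoter table (GRCm38.p6), which has no entry for Sdhc. The start is that of the table: for Sdhaf1 the stretch, chr7:30322376-30322625, lies inside the deposited gene and not upstream of it, and those of Sdha, Sdhb and Sdhaf4 run into it. None of the 7 held the NRF1 letters GCGCATGCG, the ETS letters CCGGAAGT, the ERR letters TCAAGGTCA or the YY1 letters AAGATGGCG on either strand; among 32851 promoters the shares were 1.45%, 2.88%, 0.387% and 0.606%, and among 15157 promoters of tested genes 2.52%, 5.16%, 0.264% and 1.02%. With the sixth NRF1 base free (GCGCANGCG, chosen after the sequences were seen, and overlapping the first motif), 5.16% of all promoters and 9.40% of those of tested genes held a match, as did Sdha with 3 and Sdhd and Sdhaf4 with 1 each. The GC content of the 250 bases was 61.6% for Sdha and 59.2% for Sdhb but 38.0% for Sucnr1, and the number of CpG dinucleotides was 21, 9 and 1. The stretches before the annotated starts of these 3 genes are printed because Sdha, Sdhb and Sucnr1 were the members called without PBS 3, DMM 1 and DMM 4; capitals mark GCGCANGCG. They lie at chr13:74350281-74350490 (minus strand), chr4:140961021-140961202 (plus strand) and chr3:60081619-60081868 (plus strand).
Sdha: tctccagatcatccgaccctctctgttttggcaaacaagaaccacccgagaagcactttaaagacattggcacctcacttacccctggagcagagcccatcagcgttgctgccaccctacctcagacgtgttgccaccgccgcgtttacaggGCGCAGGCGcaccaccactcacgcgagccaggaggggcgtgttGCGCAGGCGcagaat
Sdhb: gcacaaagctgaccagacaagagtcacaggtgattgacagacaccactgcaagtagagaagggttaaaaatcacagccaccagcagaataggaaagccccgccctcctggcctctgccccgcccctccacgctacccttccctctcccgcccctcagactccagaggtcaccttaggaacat
Sucnr1: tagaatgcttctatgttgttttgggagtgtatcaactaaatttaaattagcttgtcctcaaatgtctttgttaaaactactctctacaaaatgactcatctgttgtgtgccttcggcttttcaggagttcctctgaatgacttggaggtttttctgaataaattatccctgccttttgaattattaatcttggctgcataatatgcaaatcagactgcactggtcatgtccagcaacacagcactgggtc
Cut at the deposited start, the Sdha and Sdhb stretches have a GC content of 59.5% and 57.1% and hold 14 and 4 CpG dinucleotides. The Sdha stretch holds 2 matches, the other 2 stretches none. A match is a run of letters and not a bound site, and a stretch without a match shows only that these letters are absent from this window.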

How the data were processed

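The authors aligned reads from obstructed mouse kidneys to mm10 (HISAT2 2.0.5 in the submitters' processing notes) and deposited the read count of each gene in every library. The counting tool, the annotation release and the use of strand are not given in the sources used here. The FPKM values that the authors deposited were used only for levels. The group means the authors deposited, a signal in counts divided by size factors, were written as weighted sums of the counts, which gave PBS 3 and DMM 1 a weight of 0. The authors' columns of fold changes and p-values were not used.

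Genes passing edgeR's filterByExpr (16505 over 10 and 16550 over 8 libraries) were tested with edgeR 4.0.16 (R 4.3.3), TMM scaling, the quasi-likelihood F test and Benjamini-Hochberg adjustment over all of them, after a check on simulated counts. Intervals at 95% come from the same fit. Log2 CPM used a prior count of 2. Transcript lengths and overlaps are from GENCODE M21. DESeq2 1.42.0, limma-voom (limma 3.58.1), other scalings and filters, and fits without each library were alternatives. Members and lists were chosen with earlier results of these data known. Named genes are every member, the gene of smallest p in each list, other genes of the lists, and the 5 most like each of the 2 profiles described.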

Additional observations from a re-analysis of the deposited data

Results flagged for a closer look

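In a group of 5 kidneys, a highest or lowest library was singled out where its gap to the nearest other library, divided by the range of the group, was above Dixon's 95% critical value. This was so in 8 of the 32 groups examined, where chance gives about 1 in 20 groups; the groups share libraries and genes and are not independent. PBS 3 was high among the PBS kidneys for Sdhd (152 CPM, gap 0.833 of the range), Sdhaf4 (12.9 CPM, 0.739) and Sucnr1 (11.6 CPM, 0.725). DMM 4 was low among the DMM kidneys in the log2 difference of Sdhc from Sdha (-2.13, gap 0.718), of Sdhd from Sdha (-2.88, 0.902) and of Sdhd from Sdhb (-1.52, 0.838), and high in that of Sdhc from Sdhd (0.75, 0.738). PBS 5 was high among the PBS kidneys in the difference of Sdhc from Sdhd (0.45, gap 0.715), which was 0.28 to 0.33 in the other PBS kidneys.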

How the results depend on the processing

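Over all 10 libraries the direction of Sdha, Sdhb, Sdhc and Sucnr1 held under the alternatives run, and 0 of the 8 genes were called under any of them; fits without 1 library gave 0.16 to 0.39 for Sdha, 0.22 to 0.47 for Sdhb, 0.02 to 0.30 for Sdhc and 0.58 to 1.33 for Sucnr1. The log2 fold changes near 0 changed sign: Sdhd under limma-voom (-0.023), uncorrected limma on log2 CPM (-0.023) and with the replicate number as a block (-0.013); Sdhaf1 under limma-voom (-0.078), library size alone (-0.013), the block (-0.066) and limma on log2 CPM, with the length and GC correction (-0.027) or without it (-0.080); Sdhaf2 under library size alone (-0.079), no filter (-0.014) and the correction (-0.077); and Sdhaf4 under library size alone (-0.036). Without 1 library Sdhd ranged from -0.030 to 0.31, Sdhaf1 from -0.17 to 0.25, Sdhaf2 from -0.040 to 0.037 and Sdhaf4 from -0.090 to 0.17. DESeq2 called 9 genes higher and 34 lower, the unadjusted p 315 and 678, and fits without 1 library 0 to 50 higher and 0 to 436 lower, the upper ends without DMM 1.

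Over the 8 libraries Sucnr1 was called under all of the alternatives except the block (1.88, adjusted p = 0.0972 in edgeR's quasi-likelihood test; 1.36 to 1.72 without 1 library). Sdhb crossed the 1.5-fold threshold under DESeq2 (0.593), RLE size factors (0.593), protein-coding genes alone (0.589) and the correction (0.711), but its adjusted p was above 0.05 with no filter (0.0672), library size alone (0.100), the block (0.308, at 0.60) and 7 of the 8 fits without 1 library (0.0572 to 0.121); it ranged from 0.49 to 0.65 without 1 library; Sdha ranged from 0.37 to 0.60 and Sdhaf1 from 0.006 to 0.51. Under DESeq2 Sdha passed the adjusted p below the fold threshold (0.482, adjusted p = 0.0454 by DESeq2). Sdha and Sdhb were called without DMM 4. Under the block Sdhd (-0.023) and Sdhaf1 (-0.085) changed sign. Without PBS 3 and DMM 1, PBS 1 and DMM 3 have no partner of the same number. The block over the 8 libraries thus takes its difference from replicates 2, 4 and 5 alone. It is not a like-for-like alternative to the fit without a block. The labels and methods do not say that the replicate numbers pair the mice. Same-numbered libraries correlated at -0.06, 0.08, 0.34, 0.13 and -0.22, and not every sample correlated best with its own number. These values cannot settle whether the numbers mark a shared day or batch. The block fit called 0 genes higher and 0 lower in either set, DESeq2 769 and 894, library size alone 276 and 700, and the unadjusted p 1067 and 1198; without 1 library the counts ranged from 131 to 1129 higher and from 276 to 1281 lower, the upper ends without DMM 4. The cause of these changes was not tested. With the longest transcript as the length (an added alternative, as are limma on log2 CPM and the correction, which was tested by it), levels per kilobase in PBS and DMM moved to 125 and 149.7 for Sdha, 92.4 and 114 for Sdhb, 9.73 and 9.64 for Sdhaf2 and 13.9 and 14.1 for Sdhaf4; with the deposited FPKM none moved by more than the SD. Depth limits Sdhaf1 and Sucnr1 most.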
